A study of Homo sapiens with 15 samples.

Results

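CDWIN PM2.5 was set against CQWIN PM2.5 in A549 cells, a widely used human line from a lung adenocarcinoma, labelled as alveolar type II cells. The comparison takes 6 of the 15 libraries of the series, 3 from cells given CDWIN fine particulate matter (PM2.5) and 3 from cells given CQWIN PM2.5, each at 100 µg/mL for 24 h. The labels do not spell out the codes CD, CQ, WIN and SUM. The same cells given CDSUM PM2.5 or CQSUM PM2.5 at that dose and time, 3 libraries each, were used to ask whether the CD over CQ difference was alike under the other code. The 3 libraries of the solvent control, dimethyl sulfoxide (DMSO) in the same volume, gave the level without particles. RNA was sequenced in bulk, and the raw read counts of 15565 genes were tested of the 29725 with at least 1 read. Nothing in the labels tells whether replicate libraries stem from separate cultures, so the p-values speak to the spread among these libraries and no wider.

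Stearoyl-CoA desaturase (SCD) puts the double bond into saturated fatty acids, and its transcription is driven by the sterol regulatory element-binding proteins (SREBPs), which also drive the genes of cholesterol synthesis and uptake. SREBPs leave the endoplasmic reticulum for processing when sterols run low, and INSIG proteins hold them there when sterols are plentiful. The ID proteins lack a DNA-binding region and block basic helix-loop-helix transcription factors, and their genes are classical targets of bone morphogenetic protein (BMP) signalling through SMAD proteins. Alveolar type II cells make surfactant lipids, for which fatty acid synthesis and desaturation are needed.

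Total counts ran from 18079579 to 18949065 reads in the CDWIN libraries and from 17583532 to 19143965 reads in the CQWIN libraries. On log counts-per-million (CPM) values the libraries correlated at 0.974 to 0.983 within CDWIN and at 0.955 to 0.977 within CQWIN, against 0.950 to 0.980 between the groups. CQWIN 1 and CQWIN 2 each correlated best with CDWIN 1, at 0.980 and 0.979. On the first principal component of the 6 libraries, which held 41.7% of the variance, the CDWIN libraries scored -37.96 to -12.4, CQWIN 1 scored -28.3, and CQWIN 2 and CQWIN 3 scored 29.5 and 62.7. CDWIN 2 lay farthest out on the second component, at -47.9. Whether CQWIN 1 carries its right label, or differs in RNA quality, was not tested, and every CDWIN over CQWIN value rests on its label. Composition also differed between libraries. Each gene's log2 level was taken relative to its mean over all 15 libraries, and slopes of these relative levels were computed per library. The slope on GC content, per 10 percentage points of GC, was 0.159 in CDWIN 2. It was -0.151 and -0.199 in CDWIN 1 and CDWIN 3 and -0.220 to -0.125 in the CQWIN libraries. The slope on gene length, per log2 unit of length, was -0.111 to -0.030 in the CDWIN libraries. It was -0.072 and 0.068 in CQWIN 1 and CQWIN 2 and 0.193 in CQWIN 3. Of the epithelial genes, the keratin KRT8 had 51639 to 83519 reads per library, while CDH1 had 170 to 558, EPCAM 18 to 54 and MUC1 15 to 39. Several type II genes were near absent in these 6 libraries, with 0 reads of SLC34A2 and at most 1 read of SFTPB. SFTPC had at most 6 reads and LAMP3 at most 7. ABCA3, also on that marker list, had 724 to 1291 reads per library. The leukocyte genes PTPRC, CD3E, FCGR3A and HLA-DRA had 0 reads, while CD14 had 112 to 258.

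Few genes separated the particles beyond the spread between libraries. SCD fell and ID3 rose in CDWIN relative to CQWIN, and these 2 genes were the only ones called, 0.0128% of those tested and 0.00642% in each direction, by edgeR's quasi-likelihood test at a Benjamini-Hochberg adjusted p under 0.05. The authors' deposited table of this comparison also has these 2 genes, and no other of its 24150 genes with an adjusted p, under that threshold, with a log2 fold change of -1.18 for SCD and 1.19 for ID3. By contrast, 6493 genes (41.7%) were called in CDWIN against DMSO and 4264 genes (27.4%) in CQWIN against DMSO, comparisons that share their 3 DMSO libraries. Without adjustment, 2473 genes (15.9%) had p under 0.05, 1153 of them higher (7.41%) and 1320 lower (8.48%) in CDWIN. The median log2 fold change over all genes was -0.05. The 95% interval of the log2 fold change lay within 1 in either direction for 9942 genes, 63.9% of those tested, so that a difference beyond 2-fold was outside the interval of these genes.

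The count of genes called in CDWIN against CQWIN changed most when CQWIN 1 was left out. Without CQWIN 1, 1885 of 15989 genes (11.8%) were called, 1070 higher and 815 lower in CDWIN, and both SCD and ID3 were among them. Without any 1 of the 3 CDWIN libraries no gene was called by edgeR, with 1598 to 2420 genes at an unadjusted p under 0.05. Leaving out CQWIN 2 gave 3 calls and leaving out CQWIN 3 gave 2. With the trends of log2 level on GC content and gene length removed from each library, 7 genes (0.045%) were called with all libraries, 3 higher (0.0193%) and 4 lower (0.0257%), and 1579 (9.88%) without CQWIN 1, 1123 higher (7.02%) and 456 lower (2.85%).

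**Figure D1:**
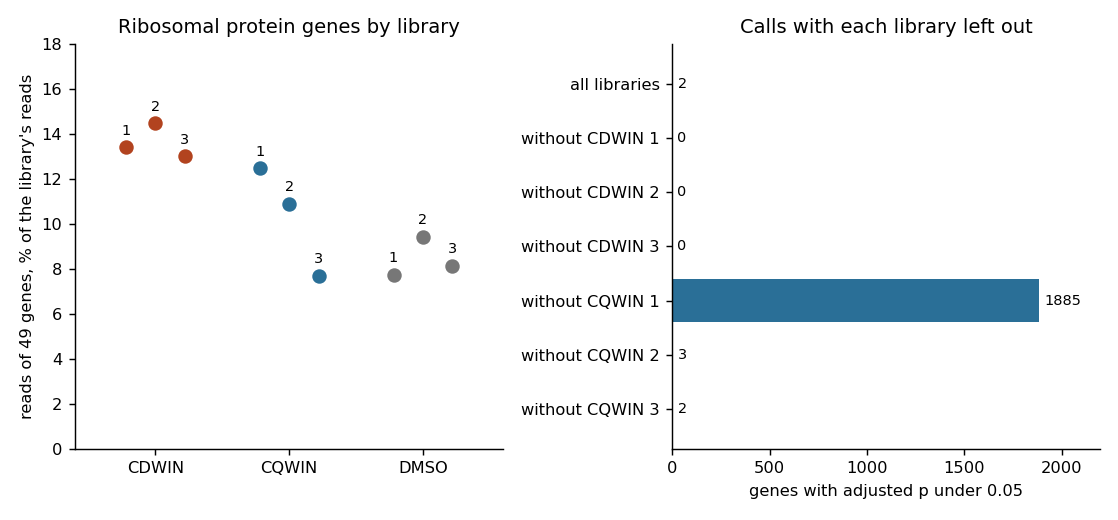
The left plot gives the reads of 49 ribosomal protein genes as a percentage of all reads in each library, with the library's number above its point. The right plot gives the number of genes with an adjusted p under 0.05 in CDWIN against CQWIN with all libraries and with each library left out. CQWIN 1 lies near the CDWIN libraries on the left, and leaving it out gives 1885 calls.

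SCD (ENSG00000099194, GRCh38 chromosome 10, 100347124 to 100364834, plus strand) had 381, 304 and 368 CPM, scaled between libraries by edgeR's trimmed mean (TMM), in the CDWIN libraries. It had 760, 683 and 997 CPM in the CQWIN libraries and 197, 169 and 203 CPM in the DMSO libraries. The 3 groups did not overlap, and every CDWIN library lay between the DMSO and the CQWIN libraries. SCD was thus 2.31-fold lower in CDWIN than in CQWIN, a log2 fold change of -1.21 ± 0.17 (SE, n = 3 each; edgeR adjusted p = 0.0137). In bulk RNA, fewer cells that express a gene and less of its RNA per cell cannot be told apart. Relative to DMSO, SCD had a log2 fold change of 0.89 in CDWIN and 2.10 in CQWIN, and both passed the edgeR test. Leaving out CQWIN libraries 1 at a time kept the call, with -1.30 to -1.07. Without a CDWIN library the log2 fold change was -1.27 to -1.12 and the edgeR adjusted p was 0.0695 to 0.190. With only the CDWIN and CQWIN libraries fitted, SCD was at -1.21 and not called (edgeR adjusted p = 0.586).

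The stretch before the SCD start is shown because it belongs to the one gene called lower. RefSeq (GRCh38.p14) places it at chr10:100346983-100347123 on the plus strand, bases 250 to 110 before the start that RefSeq gives, 100347233, which lies 109 bases inside the gene as annotated above. The stretch ends where the annotated gene begins, and the capitals mark the letters CCAAT.
SCD: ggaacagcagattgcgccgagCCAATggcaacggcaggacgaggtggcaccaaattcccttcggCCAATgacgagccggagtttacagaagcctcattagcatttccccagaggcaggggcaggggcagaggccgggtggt
CCAAT, the letters that nuclear factor Y recognises, occurred 2 times, beginning 229 and 186 bases before the RefSeq start. On either strand it was found in 32.0% of the 35116 RefSeq windows of 250 bases before a gene's start. Those windows are longer than the 141 bases printed and searched here. The match describes the sequence and was not tested as a site. The sterol element, spelled TCACNCCAC, had 0 matches on either strand of the 250 bases before the RefSeq start, which says only that these letters are not in that window. It was found in 0.88% of the windows.

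ID3 (ENSG00000117318, GRCh38 chromosome 1, 23557918 to 23559794, minus strand) moved the other way. It had 466, 461 and 393 CPM in the CDWIN libraries, 216, 230 and 142 CPM in the CQWIN libraries, and 669, 855 and 656 CPM in the DMSO libraries. Here too the groups did not overlap and the CDWIN libraries lay between DMSO and CQWIN. ID3 was 2.25-fold higher in CDWIN than in CQWIN, with a log2 fold change of 1.17 ± 0.18 (SE, n = 3 each; edgeR adjusted p = 0.0218). Relative to DMSO the log2 fold change was -0.72 in CDWIN and -1.89 in CQWIN, both past the edgeR test. Without 1 CQWIN library at a time ID3 kept its call at 0.95 to 1.31. Without a CDWIN library it was 1.13 to 1.24 with an edgeR adjusted p of 0.0695 to 0.210. With only the CDWIN and CQWIN libraries fitted, ID3 was at 1.16 and not called (edgeR adjusted p = 0.586). With the GC and length trends removed, the log2 fold change was 1.01 for ID3 and -1.07 for SCD, and both were still called. With the GC trend alone removed or with DESeq2's size factors, SCD kept its call and ID3 did not, with an edgeR adjusted p of 0.0665 and 0.0709.

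**Figure D2:**
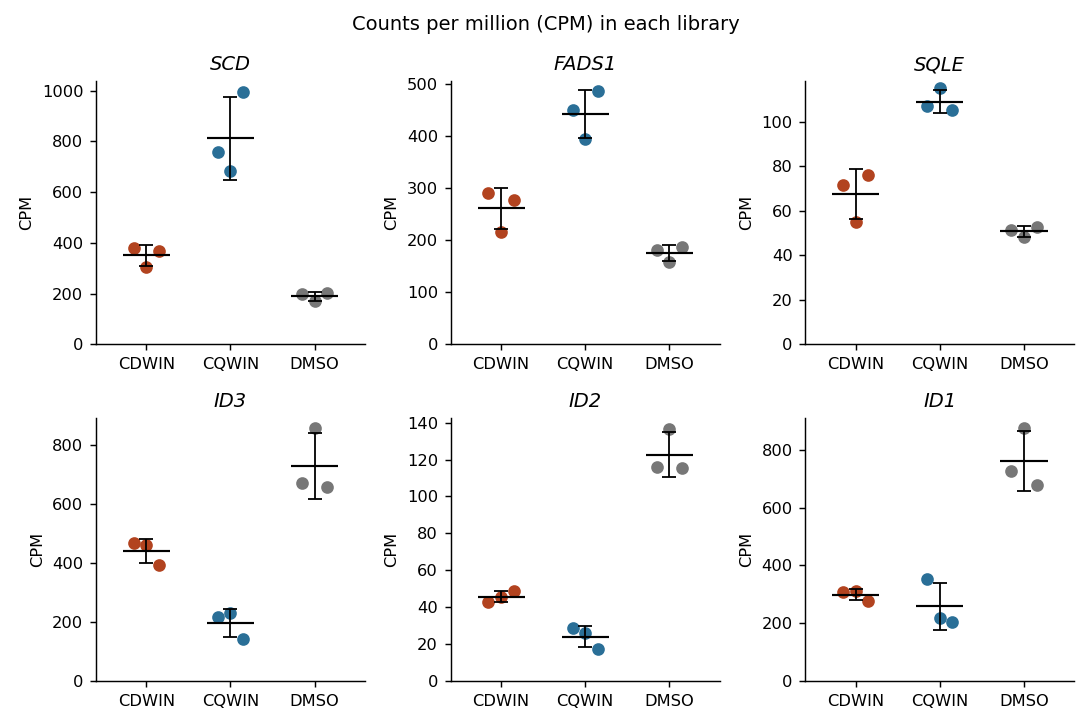
CPM of 3 lipid genes (upper row) and 3 ID genes (lower row) in each CDWIN, CQWIN and DMSO library. Points are libraries, bars are the mean and SD over 3 libraries, and each axis starts at 0. SCD and ID3 passed the adjusted test in CDWIN against CQWIN, and the other 4 genes did not.

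Among the 20 genes with the smallest p, 12 had a negative and 8 a positive log2 fold change in CDWIN, and 5 were on the fatty acid or cholesterol lists. The genes named in the rest of this paragraph were chosen after their values were seen. None passed in the fit with no trend removed, where the edgeR adjusted p was 0.0861 at rank 3 and 0.175 at rank 20. PPP2R5A, a regulatory subunit of a protein phosphatase, had 10.96, 10.04 and 9.44 CPM in CDWIN, against 19.4, 17.5 and 21.97 CPM in CQWIN. LGR4, a receptor for R-spondins in Wnt signalling, had 31.7, 26.5 and 35.7 CPM in CDWIN, against 53.7, 49.1 and 78.3 CPM in CQWIN. In both genes every CDWIN library lay below every CQWIN library. C6orf99, a long noncoding RNA, had 3.12, 3.41 and 3.42 CPM in CDWIN, against 1.13, 1.22 and 0.810 CPM in CQWIN. BCL2A1, an inhibitor of apoptosis in the BCL2 family, had 23.5, 36.3 and 27.4 CPM in CDWIN, against 17.6, 14.2 and 9.87 CPM in CQWIN. IL32, a proinflammatory cytokine, had 58.0, 56.2 and 53.9 CPM in CDWIN, against 33.4, 35.9 and 20.5 CPM in CQWIN. These 3 genes had every CDWIN library above every CQWIN library. With the GC and length trends removed, PPP2R5A, LGR4 and C6orf99 were called, with edgeR adjusted p of 0.0472, 0.0474 and 0.0474. BCL2A1 and IL32 were not called in that fit, both at an edgeR adjusted p of 0.183. Over all genes, 1021 (6.56%) had the CDWIN libraries all above and 1041 (6.69%) had them all below the CQWIN libraries.

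**Figure D3:**
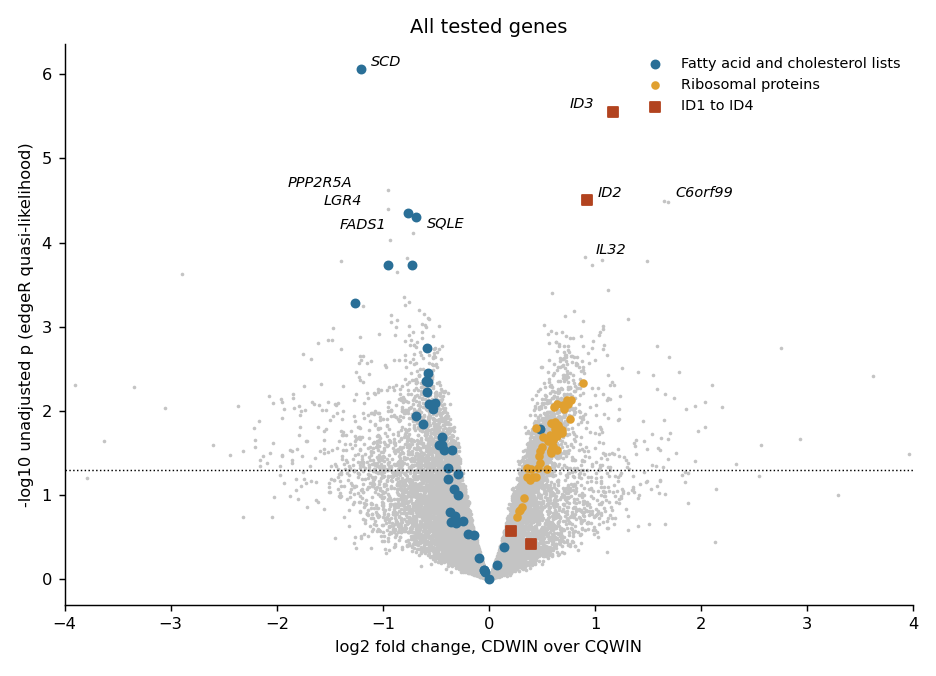
Each of the 15565 genes by its log2 fold change of CDWIN over CQWIN and the negative log10 of its unadjusted edgeR p, with a dotted line at the 0.05 level. Members of the fatty acid and cholesterol lists are blue, ribosomal proteins yellow, and ID1 to ID4 red squares. SCD and ID3 have the smallest p, lipid genes lie mostly left of 0 and ribosomal proteins right of it.

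Fatty acid synthesis and desaturation was the list that held SCD. Of its 16 tested genes, SCD was called lower, and 7 had an unadjusted p under 0.05, all lower in CDWIN, beside 8.48% of all genes. The median log2 fold change of the list was -0.35, beside -0.05 over all genes. FADS1, a desaturase of polyunsaturated fatty acids, had 291, 217 and 277 CPM in CDWIN, 450, 395 and 486 CPM in CQWIN, and 182, 159 and 188 CPM in DMSO, so that CDWIN again lay between DMSO and CQWIN. Its log2 fold change was -0.76 ± 0.14 (SE, edgeR adjusted p = 0.0863), and -0.54 with the GC and length trends removed. FADS2, its partner desaturase, had 238, 336 and 230 CPM in CDWIN, against 335, 344 and 518 CPM in CQWIN, where the libraries overlapped. ACACA, the acetyl-CoA carboxylase that makes malonyl-CoA, had a log2 fold change of -0.53, and ACSL3, which activates long-chain fatty acids, one of -0.44, and neither was called. FASN, the fatty acid synthase itself, had 146, 210 and 159 CPM in CDWIN, against 165, 140 and 185 CPM in CQWIN. Its libraries overlapped, and its log2 fold change was 0.07 with a 95% interval from -0.28 to 0.42. Outside the list, and chosen after its values were seen, ACSS2, which makes acetyl-CoA from acetate, had 25.96, 24.8 and 20.4 CPM in CDWIN, against 40.7, 34.7 and 41.7 CPM in CQWIN. LPIN1, a phosphatidate phosphatase chosen in the same way, had 12.3, 12.3 and 15.4 CPM in CDWIN, against 22.4, 22.6 and 31.4 CPM in CQWIN. Both had CDWIN below CQWIN in every library, with edgeR adjusted p of 0.121 and 0.132.

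Cholesterol synthesis and uptake had 26 tested genes, none called, and 24 of them had a negative log2 fold change. The median was -0.43, and 15 genes had an unadjusted p under 0.05 on the lower side, beside 8.48% of all genes, and 1 on the higher side. The 3 CDWIN libraries lay below the 3 CQWIN libraries for 11 of the 26, beside 6.69% of all genes. SQLE, squalene epoxidase, had 71.5, 54.8 and 76.1 CPM in CDWIN, 107, 115 and 105 CPM in CQWIN, and 51.2, 48.2 and 52.8 CPM in DMSO. INSIG1, which holds SREBP in the endoplasmic reticulum, had 54.9, 38.3 and 46.1 CPM in CDWIN, 76.7, 75.2 and 78.3 CPM in CQWIN, and 8.50, 8.18 and 9.51 CPM in DMSO. In both genes CDWIN lay below CQWIN and above DMSO in every library. The log2 fold changes of CDWIN over CQWIN were -0.69 for SQLE and -0.73 for INSIG1, with edgeR adjusted p of 0.0863 and 0.153. With the GC and length trends removed, SQLE was called at -0.62 (edgeR adjusted p = 0.0472), the only call on this list.

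HMGCS1, which makes HMG-CoA, had 85.2, 55.7 and 87.3 CPM in CDWIN, 123, 98.7 and 88.5 CPM in CQWIN, and 27.6, 26.6 and 30.2 CPM in DMSO. CDWIN lay between DMSO and CQWIN, and the lowest CQWIN library stood just above the highest CDWIN library. HMGCS1 had a log2 fold change of -0.44 with a 95% interval from -0.83 to -0.06 (edgeR adjusted p = 0.280). SREBF2, which encodes the SREBP of cholesterol synthesis, had a log2 fold change of -0.58 ± 0.19 (SE, edgeR adjusted p = 0.260). PMVK, phosphomevalonate kinase, was the gene with p under 0.05 on the higher side, at 107, 114 and 87.9 CPM in CDWIN, against 86.8, 81.2 and 53.3 CPM in CQWIN.

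Relative to DMSO, 18 of the 26 cholesterol genes were called higher and 0 lower in CDWIN, with a median log2 fold change of 0.73, beside 18.4% of all genes higher and 23.3% lower. In CQWIN, 23 were called higher and 0 lower, with a median of 1.15, beside 11.6% of all genes higher and 15.8% lower. On the fatty acid list, 4 of 16 were called higher and 3 lower in CDWIN (median 0.05), and 7 higher and 3 lower in CQWIN (median 0.33). Both comparisons use the same 3 DMSO libraries. Without CQWIN 1, 8 cholesterol genes were called lower and 1 higher in CDWIN against CQWIN, and 4 fatty acid genes were called lower, beside 6.69% of all genes called higher and 5.1% called lower in that fit. With the GC and length trends removed as well, 6 of 26 cholesterol genes and 1 of 16 fatty acid genes were called lower, beside 2.85% of all genes, and the medians were -0.24 and -0.19.

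The ID and BMP list had 15 tested genes, of which ID3 was called higher. ID2, a close relative of ID3, had 42.7, 45.7 and 48.5 CPM in CDWIN, 28.8, 25.9 and 17.4 CPM in CQWIN, and 116, 137 and 115 CPM in DMSO. Its groups did not overlap and stood in the same order as those of ID3, with a log2 fold change of 0.93 ± 0.17 (SE, edgeR adjusted p = 0.0861). With the GC and length trends removed ID2 was called, at 0.85. ID1 had 308, 313 and 277 CPM in CDWIN, 353, 220 and 205 CPM in CQWIN, and 729, 877 and 680 CPM in DMSO. CQWIN 1 lay above every CDWIN library and CQWIN 2 and CQWIN 3 below them, and the log2 fold change was 0.21 with a 95% interval from -0.17 to 0.59. ID4 had 0.519, 0.426 and 1.22 CPM in CDWIN, 0.452, 0.608 and 0.572 CPM in CQWIN, and 15.997, 13.04 and 11.4 CPM in DMSO, so the particle groups overlapped. BMP4, a ligand that induces ID genes, had a log2 fold change of -0.43, and BAMBI, a decoy receptor that dampens the pathway, one of -0.33, neither called. The median of the list was -0.10, beside -0.05 over all genes, and 0.03 with the GC and length trends removed.

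**Figure D4:**
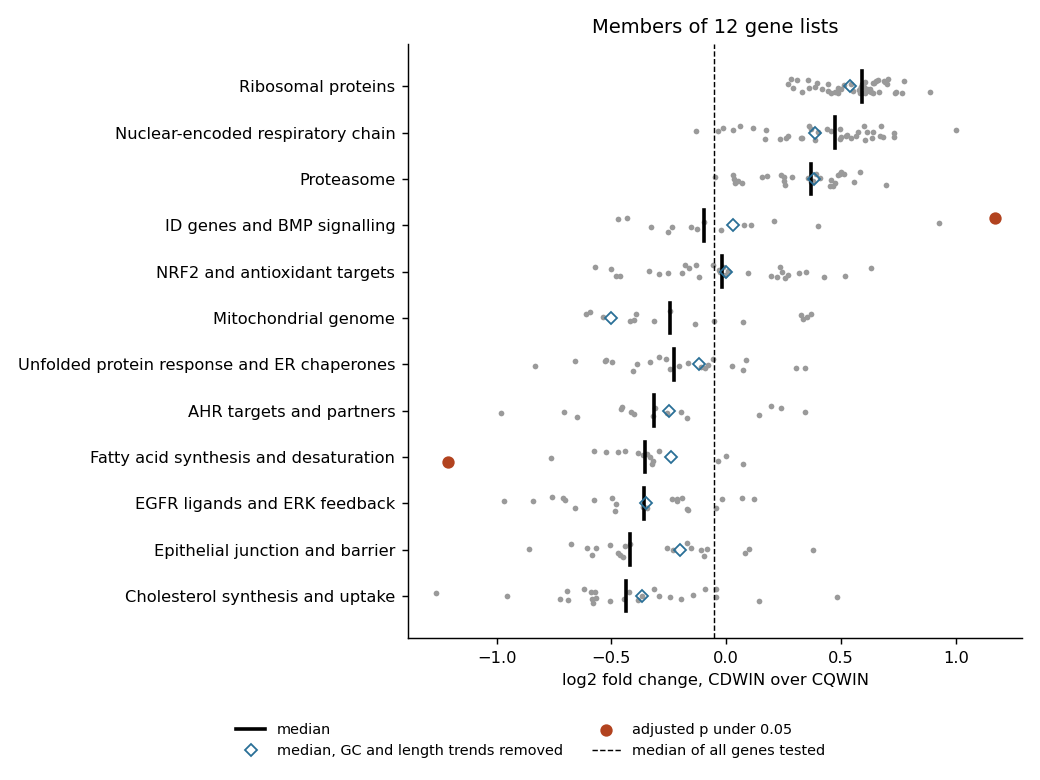
Log2 fold change of CDWIN over CQWIN for the tested members of 12 gene lists, one grey point per gene. Black bars are list medians, open blue diamonds are the medians with GC and length trends removed, the dashed line is the median of all genes, and red points passed the adjusted test. The red points are SCD in the fatty acid list and ID3 in the ID and BMP list, and all 49 ribosomal protein genes lie right of 0.

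Epidermal growth factor receptor ligands and feedback regulators of the ERK kinase cascade had 23 tested genes, none called. The median log2 fold change was -0.36, and 8 had p under 0.05 without adjustment, all lower in CDWIN, beside 8.48% of all genes. Over the alternatives tried the median ran from -0.47 to -0.15. DUSP6, a phosphatase that inactivates ERK, had 6.35, 3.59 and 5.90 CPM in CDWIN, 10.6, 6.74 and 13.7 CPM in CQWIN, and 3.85, 3.05 and 3.76 CPM in DMSO. TGFA, an EGF receptor ligand, had 22.7, 16.5 and 22.5 CPM in CDWIN, 28.4, 29.5 and 29.3 CPM in CQWIN, and 16.1, 14.2 and 11.97 CPM in DMSO. Both had CDWIN below CQWIN in every library. SPRY2 and SPRED2, inhibitors of the cascade upstream of ERK, had log2 fold changes of -0.48 and -0.48, and the receptor gene ERBB3 one of -0.84. FGFBP1, which releases fibroblast growth factors from the matrix, had one of -0.71. Without CQWIN 1, 3 genes of the list were called lower and 0 higher, beside 5.1% of all genes lower and 6.69% higher.

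The unfolded protein response list had 22 tested genes, none called, with a median of -0.23, and 8 had p under 0.05 without adjustment, all lower in CDWIN, beside 8.48% of all genes. The median was -0.12 with the GC and length trends removed and -0.13 without CDWIN 2. HSPA5, the main chaperone of the endoplasmic reticulum, had 321, 246 and 333 CPM in CDWIN, 389, 444 and 463 CPM in CQWIN, and 452, 380 and 447 CPM in DMSO. CDWIN lay below both other groups, which overlapped each other. EIF2AK3, the stress-sensing kinase PERK, had a log2 fold change of -0.83, and SEL1L, a component of the degradation complex of the endoplasmic reticulum, one of -0.66, neither called.

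All 49 ribosomal protein genes had a positive log2 fold change, with a median of 0.59 and a range from 0.27 for RPL6 to 0.89 for RPL35, and 40 had p under 0.05 without adjustment, beside 7.41% of all genes higher. None was called. They took 13.4%, 14.5% and 13.004% of the reads in the CDWIN libraries, 12.5%, 10.9% and 7.68% in the CQWIN libraries, and 7.74%, 9.43% and 8.15% in the DMSO libraries. CQWIN 1 came close to the lowest CDWIN library, and CQWIN 3 lay just below the lowest DMSO library. The 38 nuclear-encoded respiratory chain genes, whose proteins work in the mitochondrial inner membrane, had a median of 0.47 with 20 at p under 0.05, all higher. The 29 proteasome genes had a median of 0.37 with 11 at p under 0.05, all higher.

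The values of these 3 lists changed with the library that was left out. Without CQWIN 1, 38 of 49 ribosomal protein genes, 21 of 38 respiratory chain genes and 14 of 29 proteasome genes were called higher and 0 of any of the 3 lists lower, beside 6.69% of all genes called higher. Without CQWIN 3, the medians were 0.30, 0.19 and 0.14. No gene of the 3 lists was called there or with all libraries. The fit without CQWIN 3 called 2 of all 15927 genes (0.0126%). Over all genes with an unadjusted p under 0.05, those higher in CDWIN had a median length of 2398 bases and 51.4% GC, those lower 6688 bases and 46.4% GC, and all genes tested 4551 bases and 48.9% GC. The ribosomal protein, respiratory chain and proteasome lists had median lengths of 3271, 2538.5 and 3547 bases. These are deposited gene lengths, which need not be the lengths of the transcripts expressed. With the GC and length trends removed, their medians were 0.54, 0.39 and 0.38. The part of library composition in these differences was not tested further.

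The 15 tested genes of the mitochondrial genome had a median of -0.25, none called, and of -0.50 with the GC and length trends removed. MT-ND5, a complex I subunit, had 493, 464 and 438 CPM in CDWIN and 372, 652 and 1109 CPM in CQWIN, so that CQWIN libraries lay on both sides of the CDWIN libraries. Without CQWIN 1, 6 of the 15 were called lower and 0 higher, beside 5.1% of all genes lower and 6.69% higher. With the trends removed as well, 9 were called lower, beside 2.85% of all genes, and the median was -0.78.

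None of the 13 genes fixed by name passed the test in CDWIN against CQWIN. CYP1A1, which oxidises aromatic hydrocarbons under control of the aryl hydrocarbon receptor (AHR), had 14.9, 11.3 and 10.7 CPM in CDWIN, 21.8, 7.39 and 20.02 CPM in CQWIN, and 0.800, 0.534 and 0.145 CPM in DMSO. Its log2 fold change was -0.42 with a 95% interval from -1.13 to 0.30. CYP1B1, a related AHR target, had 78.3, 77.4 and 75.5 CPM in CDWIN, 102, 85.1 and 191 CPM in CQWIN, and 21.9, 17.1 and 21.0 CPM in DMSO, a log2 fold change of -0.71 with an interval from -1.18 to -0.23 (edgeR adjusted p = 0.260). TIPARP, which feeds back on AHR, had a log2 fold change of -0.40 with an interval from -0.79 to -0.02. Of the 16 tested genes of the AHR list, 3 had p under 0.05 without adjustment, all lower in CDWIN, beside 8.48% of all genes, and the median was -0.31. Over the alternatives tried it ran from -0.43 to -0.15.

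The antioxidant genes NQO1 and HMOX1, targets of NRF2, also overlapped between the groups. NQO1 had 4822, 4341 and 4515 CPM in CDWIN, 6049, 3052 and 2864 CPM in CQWIN, and 2329, 2622 and 2188 CPM in DMSO, with CQWIN 1 the highest and CQWIN 3 the lowest of the 6 particle libraries. The log2 fold change was 0.19 with an interval from -0.29 to 0.68. HMOX1, haem oxygenase, had 356, 402 and 315 CPM in CDWIN, against 288, 318 and 304 CPM in CQWIN, a log2 fold change of 0.24 with an interval from -0.05 to 0.53. Its DMSO libraries had 433, 528 and 485 CPM, above every CDWIN and CQWIN library. HMOX1 was called lower than DMSO in CDWIN (-0.43) and in CQWIN (-0.67). With the GC and length trends removed, the CDWIN call was lost (edgeR adjusted p = 0.0815). MT2A, a metallothionein that binds zinc and cadmium, had 481, 580 and 536 CPM in CDWIN, 287, 430 and 248 CPM in CQWIN, and 259, 427 and 282 CPM in DMSO. CDWIN lay above both other groups in every library, with a log2 fold change of 0.73 over CQWIN and an interval from 0.30 to 1.15 (edgeR adjusted p = 0.260). MT1X, another metallothionein, had 12.5, 12.8 and 11.4 CPM in CDWIN, against 8.24, 9.47 and 6.48 CPM in CQWIN.

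Among the inflammatory genes, the intervals were wider for IL6 and IL1B than for CXCL8. CXCL8, the neutrophil chemokine interleukin 8, had 778, 593 and 668 CPM in CDWIN, 651, 326 and 310 CPM in CQWIN, and 98.0, 110 and 85.5 CPM in DMSO. CQWIN 1 lay inside the CDWIN range and the other CQWIN libraries below it, and the log2 fold change was 0.66 with an interval from 0.16 to 1.17 (edgeR adjusted p = 0.260). IL6 and IL1B, cytokines of the acute response, had log2 fold changes of 0.12 (interval -0.58 to 0.81) and 0.13 (interval -0.58 to 0.84). DDIT3, a transcription factor of the integrated stress response, had 0.25 (interval -0.38 to 0.88). CDKN1A, the cell cycle inhibitor p21, had 0.03 (interval -0.28 to 0.34). Across the 44 lists, the medians ran from -0.46 to 0.59, and in 42 of them no gene was called. The lowest median was that of the leukocyte list, with 3 tested genes. Over the 40 lists with at least 10 tested genes the medians ran from -0.43 to 0.59.

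The same contrast was run under the SUM code. In CDSUM against CQSUM, which share no library with CDWIN and CQWIN, 2156 genes (13.9%) were called, 26 higher (0.167%) and 2130 lower (13.7%) in CDSUM, beside the 2 genes of CDWIN against CQWIN, or 1885 (11.8%) without CQWIN 1. The split changed when trends were removed. With the GC trend removed 511 genes were called higher and 729 lower, and with the GC and length trends removed 657 higher and 801 lower. With DESeq2's size factors in place of TMM, 39 were called higher and 1945 lower. The 2130 lower genes had a median log2 fold change of -0.31 in CDWIN over CQWIN and of -1.28 in CDSUM over CQSUM. In CDWIN over CQWIN, 312 of them had an unadjusted p under 0.05 on the lower and 5 on the higher side, beside 8.48% and 7.41% of all genes. Across the 15565 genes, which are not independent replicates, the 2 sets of log2 fold changes correlated at Pearson's r = 0.395 and Spearman's rho = 0.459. The slope on GC content was 0.189 to 0.229 in the CDSUM libraries and -0.191 to -0.089 in the CQSUM libraries. With the GC trend removed 1240 genes were called, 734 of them among the 2156. The part of this slope in the CDSUM over CQSUM difference was not tested further.

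The difference between the 2 differences, tested as an interaction in the same edgeR model, was called for 315 genes (2.02%), 309 positive (1.99%) and 6 negative (0.0385%). SCD was among the 6, with -0.95 ± 0.23 (SE, edgeR adjusted p = 0.0419). It had 256, 268 and 309 CPM in CDSUM, against 360, 285 and 353 CPM in CQSUM, a log2 fold change of -0.26 that was not called. MAP3K3, a kinase above the MAP kinase and NF-kB pathways, was also among them. It had 14.7, 15.8 and 15.8 CPM in CDWIN, against 23.1, 22.5 and 33.3 CPM in CQWIN, and 23.99, 22.2 and 25.04 CPM in CDSUM, against 22.7, 19.1 and 20.9 CPM in CQSUM. The other 4 averaged under 1 CPM in each particle group. The 309 positive genes had a median log2 fold change of -0.09 in CDWIN over CQWIN and of -1.58 in CDSUM over CQSUM, and 307 of them were called lower in CDSUM. The interaction count ran from 0 to 883 when libraries were left out 1 at a time, with 0 without CDSUM 2 or CDWIN 3, 883 without CDWIN 2 and 24 to 432 without any other single library. With the GC and length trends removed it was 84, 71 positive and 13 negative. SCD and MAP3K3 missed the threshold in 9 of those 12 fits without a library. With the GC trend removed their edgeR adjusted p was 0.0672 and 0.0907, and with only the groups compared it was 0.0880 and 0.0787.

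ID3 had 557, 518 and 558 CPM in CDSUM, against 415, 482 and 420 CPM in CQSUM, a log2 fold change of 0.31 that was not called, and its interaction of 0.86 had an edgeR adjusted p of 0.0817, and 0.0393 with the GC and length trends removed. Cholesterol genes had a median of -0.43 in CDWIN over CQWIN, against 0.00 in CDSUM over CQSUM. Their interaction was called for 0 of 26, beside 1.99% of all genes positive and 0.0385% negative. In CDSUM over CQSUM, 5 of the 26 were called lower and 0 higher. The shares of all genes were 13.7% lower and 0.167% higher. HMGCS1 was called lower there, with a log2 fold change of -0.77 (edgeR adjusted p = 0.0069). With the GC and length trends removed it was -0.10 and not called. INSIG1 had a log2 fold change of 0.02 in CDSUM over CQSUM and was not called. Ribosomal proteins had a median of 0.59 in CDWIN over CQWIN, against 0.38 in CDSUM over CQSUM. Their interaction was called for 0 of 49, beside 2.02% of all genes. At such shares, 0 calls on a list of this size tell little about it.

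**Figure D5:**
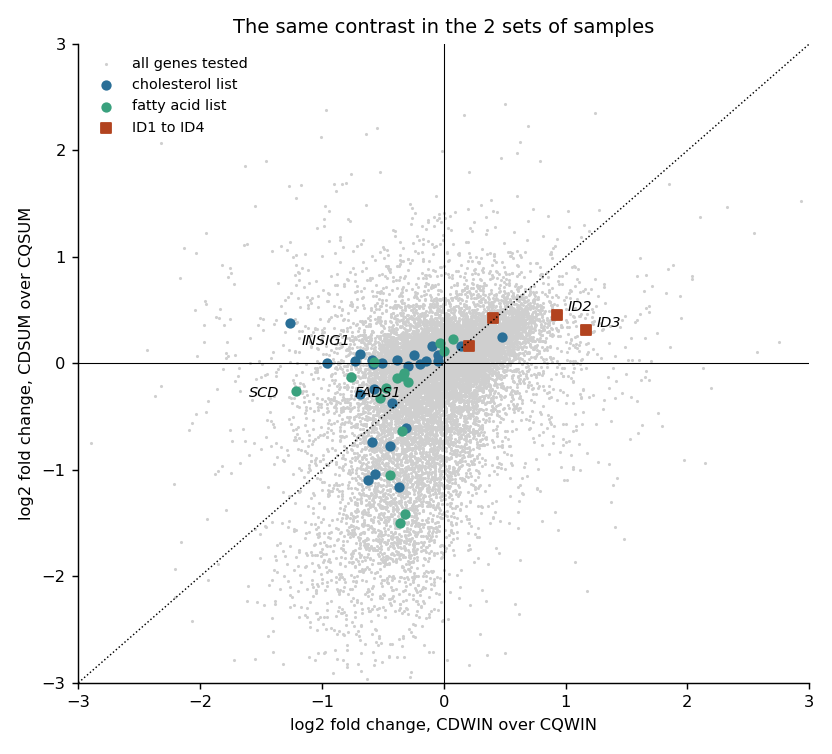
Log2 fold change of CDWIN over CQWIN (horizontal) and of CDSUM over CQSUM (vertical) for each tested gene, with the cholesterol list in blue, the fatty acid list in green and ID1 to ID4 as red squares. The dotted line marks equal values, and 42 genes beyond 3 on either axis are not drawn. SCD lies at -1.21 and -0.26, and ID3 at 1.17 and 0.31.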

How the data were processed

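Bulk RNA was sequenced from A549 cells in 15 libraries of 5 groups. The authors deposited 1 table of 58735 genes with raw read counts and FPKM values of each library. The authors' comparisons in it give the mean signal of both groups, a log2 fold change and a p-value with its adjustment. The aligner and counter are not given in the sources used here. Per the labels, 2 library kits are named and strand is not stated. Per the submitters' processing notes the builds are the mouse GRCm38 and mm10, yet every gene identifier is a human one with the position it has in GENCODE 29, so positions are on GRCh38.

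Counts were tested with edgeR 4.0.16 in R 4.3.3. filterByExpr kept 15565 genes, and the genes removed held 0.0838% of the reads. One quasi-likelihood model with TMM scaling and 1 coefficient per group had 10 residual degrees of freedom and a common biological coefficient of variation of 20.5%. The fit was checked on simulated counts. A gene was called at an adjusted p under 0.05 over all genes tested. CPM are TMM-scaled, with errors as SD. Log CPM values, used for correlations, principal components and trends, had a prior count of 2. Fold changes are on the log2 scale, with SE taken from the test statistic. Trends on GC content and length were removed with splines in a named alternative. Length was the gene length the authors deposited, and GC content that of the gene's longest GENCODE 29 transcript. DESeq2 1.42.0, other filters and fits without single libraries were further alternatives.

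The text names called protein-coding genes of at least 5 CPM whose groups did not overlap, called list members, and 13 genes fixed by name; other names were chosen after their values were seen. The 44 lists, the fixed genes and the comparison were chosen with earlier results of these data known. Reads of overlapping genes cannot be told apart without strand: CYP1B1, DDIT3, EIF2AK3, FADS1, FADS2, ID2, MAP3K3, MVK, RPL6, SREBF2 and TIPARP overlap exons of another tested gene on the opposite strand, and MT-ATP8 and FADS2 on the same strand. Ribosomal protein genes have near-identical pseudogene copies, so their counts are uncertain. Some members of the lists are not reported here by name.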

Additional observations from a re-analysis of the deposited data

Results flagged for a closer look

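The CD over CQ difference itself differed between the WIN and SUM libraries, by the interaction test of edgeR over 15565 genes, for 3 genes named here, and none of the 3 held under every alternative. SCD had an interaction of -0.95, from log2 fold changes of -1.21 in CDWIN over CQWIN and -0.26 in CDSUM over CQSUM. MAP3K3 had an interaction of -0.95, from -0.77 and 0.18 in the same order. MT-ATP8, a mitochondrial ATP synthase subunit whose exon overlaps that of MT-ATP6, had an interaction of 0.85, from 0.32 and -0.52, and it was looked at after its values were seen. Their adjusted p were 0.0419, 0.0360 and 0.0412. Each of the 3 missed the threshold in 9 of 12 fits without 1 library. SCD and MAP3K3 also missed it with the GC trend removed (0.0672 and 0.0907) and with only the groups compared (0.0880 and 0.0787). SCD missed it with CDWIN 2 and CQWIN 3 left out together (0.0610), and MAP3K3 with the replicate block and both trends removed (0.0538). The interaction of MT-ATP8 was 0.28 with the GC trend removed (0.789) and 0.22 with the GC and length trends removed (0.793), neither called. These values are edgeR adjusted p unless named as the interaction, and the causes were not tested.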

How the results depend on the processing

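With 3 libraries a group, the 95% interval had a median half-width of 0.49 on the log2 scale, which limits the differences that could be shown. Whether the libraries are separate cultures is not stated, and the count in CDWIN against CQWIN moves most without CQWIN 1. The number of genes called in CDWIN against CQWIN was 2, and by alternative 1 with DESeq2's size factors, 28 with DESeq2's Wald test, 522 with no filter on low counts, 0 with only the groups compared, 1 with the GC trend removed, 7 with the GC and length trends removed, and 0 with CDWIN 2 and CQWIN 3 left out together, where 620 genes had an unadjusted p under 0.05. CQWIN 1 left out together with the GC and length trends removed, an alternative chosen after seeing the data, gave 1579. Leaving out 1 library at a time gave 0 to 1885. The fit with only the groups compared had 1233 genes at an unadjusted p under 0.05. SCD was called in 13 of 18 alternatives (-1.30 to -0.94) and ID3 in 11 of 18 (0.95 to 1.31).

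With the replicate number as a block, 4 genes were called, and with the GC and length trends removed as well, 2. Deviations of same-numbered libraries correlated at -0.049, -0.096 and 0.032, and not every library correlated best with its own number. Whether the numbers stand for a shared day or batch was not tested.

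The interaction, 315 genes, gave 542 with DESeq2's Wald test, 569 with no filter, 48 with only the groups compared, 39 with the GC trend removed, 84 with the GC and length trends removed, 55 with the replicate block as well, 896 with CDWIN 2 and CQWIN 3 left out together, and 0 to 883 without 1 library. CDSUM against CQSUM, 2156 genes, gave 1240 with the GC trend removed and 1487 to 2271 without 1 library. The causes were not tested.

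Among the genes named, the direction turned for FASN with the GC trend removed (-0.13), for IL6 with the length trend removed (-0.049), both trends removed (-0.039) and CQWIN 1 also left out (-0.27), for ID1 with both trends removed (-0.0012), and for CDKN1A with the length trend removed (-0.023), both removed (-0.0565), the block as well (-0.05705), CDWIN 2 and CQWIN 3 left out together (-0.10), and CQWIN 1 left out with both trends removed (-0.031). Without 1 library at a time the log2 fold change ran from -0.17 to 0.48 for IL6, -0.15 to 0.52 for IL1B, -0.057 to 0.64 for DDIT3, -0.04995 to 0.15 for CDKN1A, -0.10 to 0.18 for FASN, -0.20 to 0.66 for ID4 and -0.019 to 0.62 for NQO1.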
